A study of Drosophila melanogaster with 8 samples.

Results

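The day-night difference in head RNA was compared between vriΔ679 mutant and wild-type flies of Drosophila melanogaster. For each gene, ZT14 minus ZT2 was taken in each genotype on the log2 scale, and the wild-type value was subtracted from the vriΔ679 value. This second-order difference is called genotype by time below, and all 8 of the 8 libraries of the study entered it. The groups were vriΔ679 at ZT14, vriΔ679 at ZT2, wild type at ZT14 and wild type at ZT2, with 2 libraries each. ZT counts hours from lights on, so ZT14 lies in the early night and ZT2 in the early day of a cycle of 12 h light and 12 h dark at 25 °C. The wild-type strain is labelled w1118 and the mutant strain is labelled by its vri allele alone. All flies had 3 days of entrainment before collection on the following day. Age and sex of the flies, the nature of the lesion, a shared stock background and separate cultures for replicates are not given in the sources used here, so p-values measure only the spread between these samples.

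In the fly circadian clock, the transcription factors CLOCK and CYCLE switch on period (per), timeless (tim), vrille (vri) and Pdp1 towards the evening. PER and TIM proteins then shut CLOCK and CYCLE down, while VRI represses Clk and PDP1 activates it, so Clk and cry RNA peak near dawn. Through this machinery, and through light, feeding and rest, a share of head transcripts outside the clock also differs between day and night.

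The mapped reads per library ranged from 49.3 to 65.4 M. The neuron markers and the photoreceptor genes of the labelled tissue were present, with 13 of 13 neuron markers and 25 of 26 phototransduction genes tested. The vri transcripts that start at the highest listed position are called long here. They made up 95.5 to 99.6% of vri FPKM (fragments scaled by transcript length and by mapped reads) in the 4 wild-type libraries. They made up 0.50% and 0.28% in vriΔ679 at ZT2 and 1.00% in vriΔ679 ZT14 replicate 1. In the library labelled vriΔ679 ZT14 replicate 2 they made up 74.1%, nearer to wild type than to the other vriΔ679 libraries. Whether its label is right was not tested. The vriΔ679 ZT14 replicates also lay farthest apart, with a median absolute log2 difference over genes of 0.317, against 0.129 in vriΔ679 at ZT2, 0.108 in wild type at ZT14 and 0.102 in wild type at ZT2. Every call was therefore also computed without that library.

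Of 10122 genes tested, 835 (8.25%) were called in genotype by time by limma at an adjusted p under 0.05, of 2732 with an unadjusted p under 0.05. The difference was lower in vriΔ679 for 595 of them (5.88%) and higher for 240 (2.37%). The called genes were sorted by their time differences in each genotype, which the sorting itself uses, so the class sizes are descriptions. The difference was called in vriΔ679 and not in wild type for 323 genes (3.19%), here called gained. It was called in wild type and not in vriΔ679 for 243 genes (2.4%), called lost. It was called in both genotypes with opposite signs for 116 genes (1.15%), called reversed. It was larger in vriΔ679 with the same sign for 6 genes (0.0593%), called enlarged, smaller for 4 genes (0.0395%), called reduced, and called in neither genotype for 143 genes (1.41%).

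**Figure D1:**
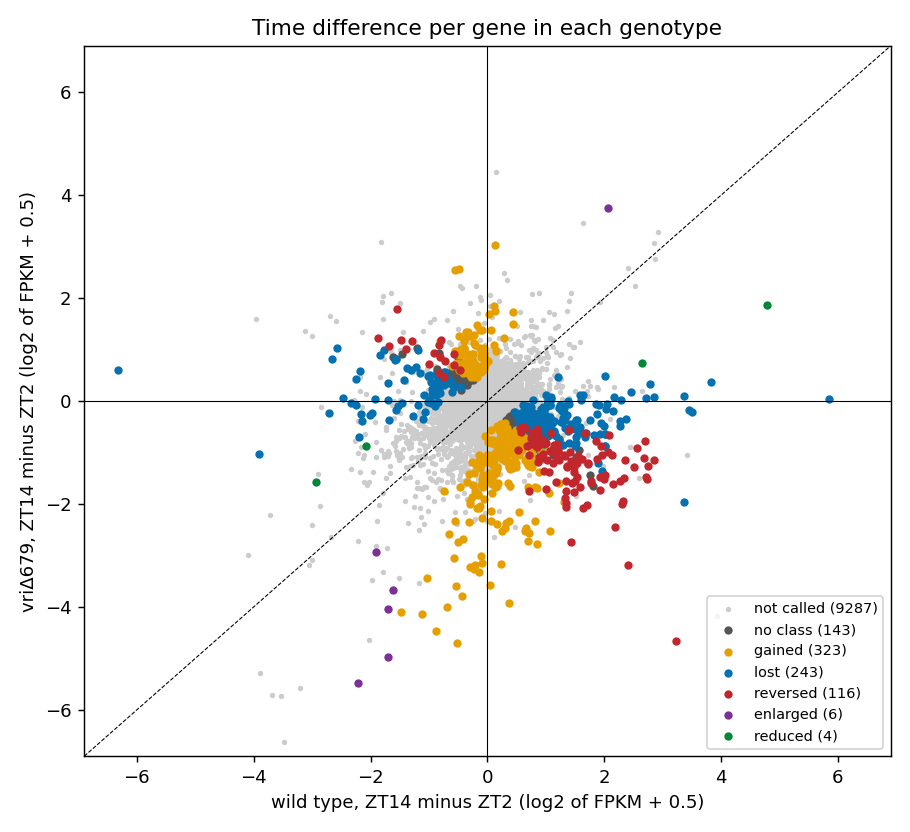
Time difference (ZT14 minus ZT2, log2 of FPKM + 0.5) of each gene in vriΔ679 (vertical) and wild type (horizontal), coloured by class, with equality on the dashed line. The 116 reversed genes lie in the upper left and lower right quadrants, 99 of them below and right of the centre, and most lost and gained genes lie in the same quadrants close to an axis.

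Opposite signs of the estimates were not limited to the reversed class. The estimated time differences had opposite signs in 202 of the 243 lost genes, 250 of the 323 gained genes and 143 of the 143 genes called in neither genotype. Genes were picked by the gap between their time differences, which is wider when signs oppose. These counts thus follow largely from the sorting, and the share over all genes is not set beside them. Lost and gained say on which side of a threshold each genotype fell, not that one genotype had no difference. Across all genes tested, the time differences of the genotypes correlated at r = 0.043 (Spearman rho = −0.082), given as a description over genes that share the same 8 libraries. The median absolute time difference was 0.280 in vriΔ679 and 0.169 in wild type. With one vriΔ679 ZT14 library at a time it was 0.401 for replicate 1 and 0.208 for the library labelled replicate 2.

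The time comparisons within a genotype called 1009 genes (9.97%) in vriΔ679 and 671 (6.63%) in wild type, with 236 in both. Of these 236, 120 had the same sign and 116 the opposite sign. A further 642 genes were called in only one genotype and not in genotype by time, so a difference between the genotypes was not shown for them. The genotype difference was larger at ZT14 than at ZT2 in 685 of 835 called genes (82.0%), beside 70.3% of all genes tested.

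The number of calls rested on single libraries. No call changed sign. Without the library labelled vriΔ679 ZT14 replicate 2 there were 4187 calls, 2182 lower (21.7%) and 2005 higher (19.9%), and 826 of the 835 genes were among them. Without vriΔ679 ZT14 replicate 1 there were 1278 calls, with 783 of the 835 among them. Without vriΔ679 ZT2 replicates 1 and 2 the counts were 350 and 288, without replicates 1 and 2 of wild type at ZT14 they were 374 and 249, and without wild-type ZT2 replicates 1 and 2 they were 310 and 258. With any 1 library left out, 188 genes (1.86%) remained called, 103 of them reversed, 44 lost, 37 gained, 2 enlarged and 2 reduced. Each of the 835 genes kept its sign with either vriΔ679 ZT14 library alone, and so did the opposite signs of the 116 reversed genes. The genes were called on these same libraries, so kept signs follow largely from the call and add no support. Weights that let each group have its own spread gave 537 calls, 395 of them lost, 24 gained and 22 reversed. Of the 835 genes, 498 were among these calls, and 159 of the 243 lost genes stayed lost.

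**Figure D2:**
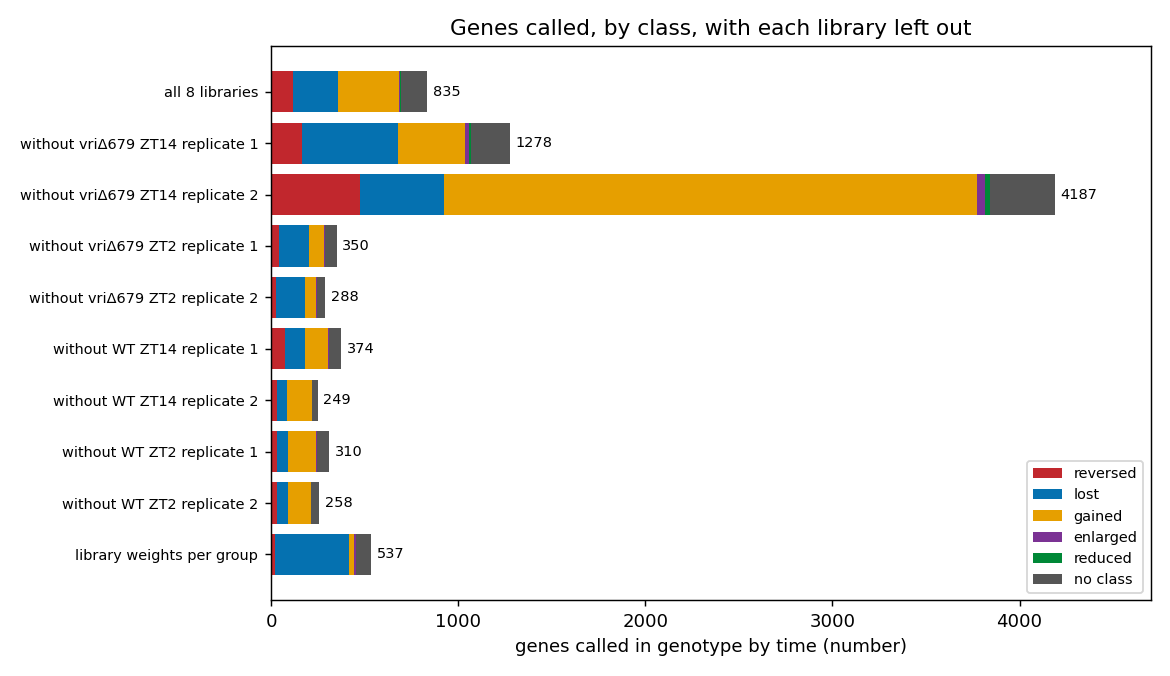
Number of genes called in genotype by time (horizontal), split by class, with all 8 libraries (835), with each library left out, and with a weight per group (537). The count is 4187 without the library labelled vriΔ679 ZT14 replicate 2 and between 249 and 374 without any 1 library outside vriΔ679 at ZT14.

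At the threshold, CG6145 lay just inside with a difference of −0.74 (adjusted p = 0.0499) and CG31871 just outside with 0.66 (adjusted p = 0.0501). For each gene named below, levels are FPKM scaled between libraries and given as replicate 1 and replicate 2. Positions are on the dm6 build as the tables give them. Differences are log2 values, SE is the standard error of the fit, and adjusted p comes from limma with Benjamini-Hochberg adjustment. Leaving out a vriΔ679 ZT14 library leaves 1 sample in the group whose replicates lay farthest apart. Its spread is then taken from the other groups. More genes were called in these settings than with all libraries, so a call there adds little for a named gene. Counts of list members called with a library left out are to be read beside the calls over all genes in that setting, given above. Many of the 94 calls named here ended when 1 library outside vriΔ679 at ZT14 was left out.

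per, tim, vri, cwo, Clk and cry each had a called time difference of the same sign in both genotypes, and only per among these clock genes was called in genotype by time. per (X 2685580–2692780), whose protein represses CLOCK, stood at 94.8 and 81.9 FPKM in vriΔ679 at ZT14 and 5.49 and 6.79 at ZT2, against 44.7 and 32.1 FPKM in wild type at ZT14 and 7.73 and 9.67 at ZT2. per was above wild type at night and below it by day in vriΔ679, and no groups overlapped. It rose by 3.75 in vriΔ679 and by 2.07 in wild type, a difference of 1.67 (SE 0.29, adjusted p = 0.0183), and 1.79 without the library labelled vriΔ679 ZT14 replicate 2. Leaving out vriΔ679 ZT2 replicate 1, wild-type ZT14 replicate 2 or wild-type ZT2 replicate 2 ended the call (adjusted p of 0.0679 to 0.0818), and exons of per overlap a gene on the other strand. For tim, the partner of per, the difference was 0.35 (SE 0.25, adjusted p = 0.397), with rises of 3.28 in vriΔ679 and 2.93 in wild type.

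The repressor genes vri and cwo and the activator gene Pdp1 had differences of −0.10 (SE 0.38, adjusted p = 0.882), 0.14 (SE 0.30, adjusted p = 0.777) and 0.21 (SE 0.28, adjusted p = 0.656). vri is the mutated gene, and its level in vriΔ679 at ZT14 was 21.8 and 40.6 FPKM, the higher value in the library that lists long transcripts, and the sign of its difference changed with the library left out (−0.53 to 0.34). The dawn genes Clk, at 6.14 and 8.43 FPKM in vriΔ679 at ZT14 and 13.6 and 14.6 at ZT2, against 3.58 and 3.54 in wild type at ZT14 and 10.8 and 10.3 at ZT2, and cry had positive differences of 0.52 (SE 0.22, adjusted p = 0.18) and 0.59 (SE 0.19, adjusted p = 0.108). Both fell at night in each genotype. Neither was called in genotype by time. The differences of Clk and cry were 0.73 and 0.72 without vriΔ679 ZT14 replicate 1, and 0.31 and 0.47 without the library labelled replicate 2. The clock output gene to, whose protein belongs to a family that binds juvenile hormone, and the glycosyltransferase gene Ugt35b were not called. Their differences were 1.25 (adjusted p = 0.0781) and 0.80 (adjusted p = 0.155). These were 1.56 and 1.07 without the library labelled vriΔ679 ZT14 replicate 2, and 0.96 and 0.55 without replicate 1.

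cyc, which had no called time difference in either genotype, differed by 0.29 (adjusted p = 0.273), and the clock output gene dysc by −0.30 (adjusted p = 0.368). Slob, a potassium channel regulator with a day-night rhythm in heads, differed by 0.65 (adjusted p = 0.071) and was not called. Its difference was 0.73 without vriΔ679 ZT14 replicate 1 and 0.58 without the one labelled replicate 2. Of 11 clock output genes 1 was called, Pdf, a share near the 8.25% of all genes tested. The clock kinase genes dco, which encodes DOUBLETIME, and sgg, which encodes SHAGGY, differed by −0.60 (adjusted p = 0.254) and −0.29 (adjusted p = 0.388). Of 18 genes for clock kinases, phosphatases and protein degradation, 1 was called, beside 8.25% of all genes tested. The gene is Atx2, which promotes translation of per. It stood at 13.7 and 21.3 FPKM in vriΔ679 at ZT14 and 40.2 and 44.2 at ZT2, against 52.3 and 47.5 in wild type at ZT14 and 43.2 and 46.1 at ZT2. It was lower in the mutant night than in any other group, a difference of −1.44 (SE 0.28, adjusted p = 0.0283), lost without any 1 of the 6 libraries outside vriΔ679 at ZT14 (adjusted p of 0.0825 to 0.112).

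The reversed class held many genes of the cuticle, the chitin and protein layer that the epidermis secretes. Of 47 cuticle protein genes tested, 22 were called lower and 1 higher, beside 5.88% and 2.37% of all genes tested. The median difference was −1.24 beside −0.01 over all genes, and 10 of the called genes were reversed. Cpr62Bc (3L 1840281–1842084), a chitin-binding cuticle protein gene, stood at 67.0 and 59.5 FPKM in vriΔ679 at ZT14 and 109.7 and 129.5 at ZT2, against 447 and 538 in wild type at ZT14 and 84.0 and 81.0 at ZT2. Wild-type heads had far more at night than by day, vriΔ679 heads had less at night than by day, and no groups overlapped. The difference was −3.48 (SE 0.21, adjusted p = 0.000828), and −3.38 without the library labelled vriΔ679 ZT14 replicate 2. Cpr76Bd, Cpr92F and Cpr47Ea followed with −3.51, −3.47 and −4.24 (adjusted p of 0.000828, 0.000828 and 0.00245). The list had 25 and 24 members lower without vriΔ679 ZT14 replicates 1 and 2, 16 and 15 without vriΔ679 ZT2 replicates 1 and 2, 17 and 14 without replicates 1 and 2 of wild type at ZT14, and 15 and 13 without wild-type ZT2 replicates 1 and 2. Members called higher numbered 5 without the library labelled vriΔ679 ZT14 replicate 2 and 0 or 1 without any other. The exception, Cpr49Ac, was higher by 2.87 (SE 0.46, adjusted p = 0.0153). It had 0.102 and 0.0377 FPKM in vriΔ679 at ZT14 and 0.314 and 1.16 at ZT2, against 0.626 and 0.695 in wild type at ZT14 and 14.3 and 19.8 at ZT2. Only the wild-type day was high, and the call was lost without either wild-type ZT14 library or wild-type ZT2 replicate 2 (adjusted p of 0.0587 to 0.0692).

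Genes that make and harden the cuticle moved with its structural proteins. This list of chitin and tanning genes was added after the cuticle result was seen, and 19 of its 38 tested members were called lower and 1 higher, beside 5.88% and 2.37% of all genes. The median difference was −1.43, and 15 calls were kept with any 1 library left out. Without the library labelled vriΔ679 ZT14 replicate 2, 24 were called lower and 7 higher, beside 21.7% and 19.9% of all genes in that setting. kkv (3R 5378093–5392866), the chitin synthase gene, stood at 3.46 and 3.40 FPKM in vriΔ679 at ZT14 and 12.3 and 18.2 at ZT2, against 25.4 and 29.8 in wild type at ZT14 and 10.5 and 10.6 at ZT2. Its lowest values were in the mutant night and its highest in the wild-type night, a difference of −3.32 (SE 0.26, adjusted p = 0.00146), and −3.30 without the library labelled vriΔ679 ZT14 replicate 2. verm, a chitin deacetylase gene, stood at 38.4 and 43.5 FPKM in vriΔ679 at ZT14 and 125 and 152 at ZT2, against 205 and 242 in wild type at ZT14 and 145 and 127 at ZT2. laccase2, the phenol oxidase gene of cuticle tanning (current symbol stw), stood at 4.77 and 8.39 FPKM in vriΔ679 at ZT14 and 18.6 and 21.0 at ZT2, against 32.0 and 42.4 in wild type at ZT14 and 17.8 and 14.5 at ZT2. Both were also lowest in the mutant night, with differences of −2.46 and −2.74 (adjusted p of 0.00227 and 0.00887). The chitin-binding gene Gasp, the chitinase gene Cht7 and the dual oxidase gene Duox had −2.60, −2.73 and −2.90 (adjusted p of 0.00111, 0.00228 and 0.000945). These 6 genes were named after their values were seen, and each was called with any 1 library left out.

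**Figure D3:**
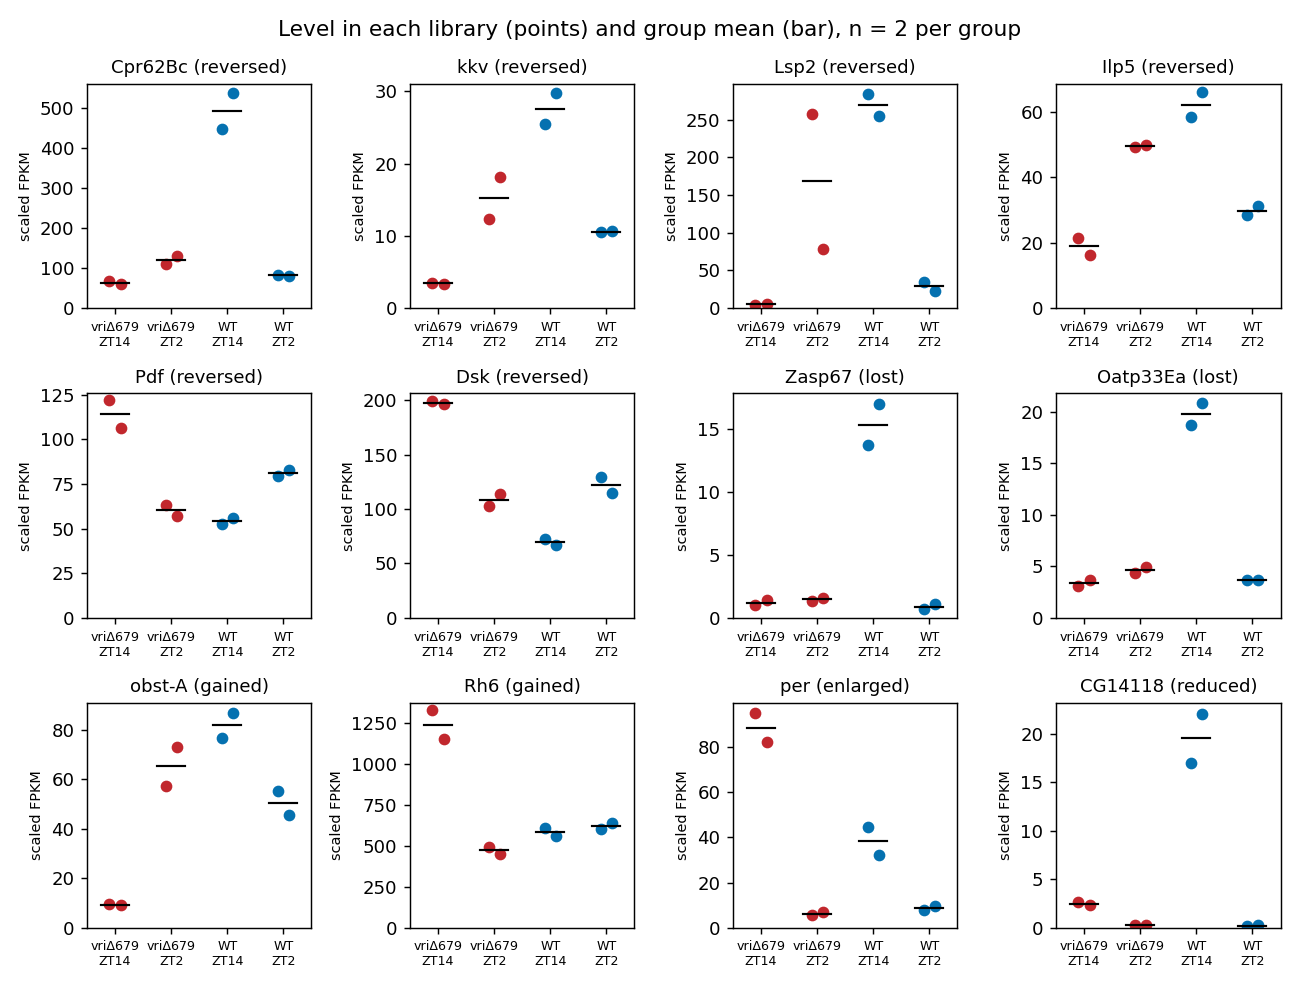
Scaled FPKM of 12 genes in each library (points) with the mean of the 2 libraries (bar), for vriΔ679 at ZT14 and ZT2 and wild type at ZT14 and ZT2. By mean, Cpr62Bc, kkv, Lsp2 and Ilp5 are lowest in vriΔ679 at ZT14 and highest in wild type at ZT14, and Pdf and Dsk show the opposite order.

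Of the other reversed genes with the smallest p, CG3777, CG15080, CG16885 (current symbol Vajk2) and CG7896 had differences of −3.21, −3.45, −3.78 and −2.85. The levels of CG16885 were 153 and 135 FPKM in vriΔ679 at ZT14 and 306 and 311 at ZT2, against 710.0 and 905 in wild type at ZT14 and 126 and 122 at ZT2. Among the largest falls, CG4017, CG13063 and CG11345 had −4.31, −4.26 and −4.20. Over the whole class, 99 genes had a lower and 17 a higher difference. In the lower set the median difference was −2.73, with median time differences of −1.15 in vriΔ679 and 1.37 in wild type. A genotype difference was called at ZT14 in 113 of the 116 genes and at ZT2 in 29. It was larger at ZT14 than at ZT2 in 109 of the 116, beside 70.3% of all genes tested. Both genotype differences enter the contrast that picked the class, so these counts describe the class alone. A time difference of at least 1 log2 unit in both genotypes was found in 63 of the 116. Exons overlapped another gene in 24 of the 116.

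**Figure D4:**
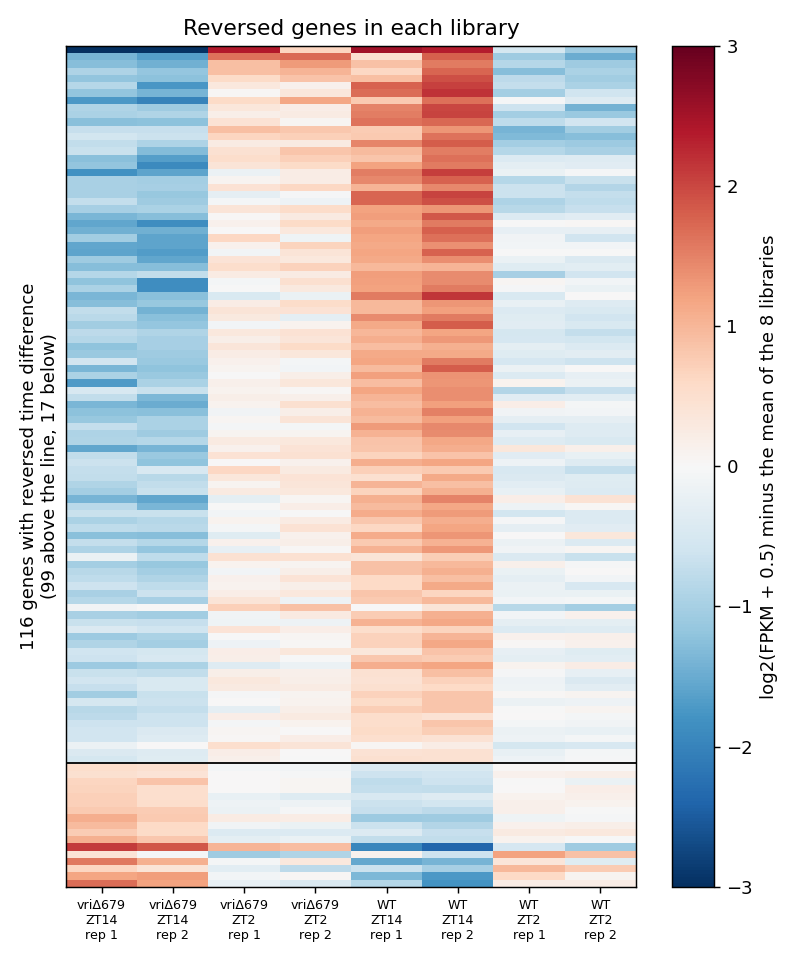
Levels of the 116 reversed genes in each library as log2(FPKM + 0.5) minus the mean of the 8 libraries (colour, limited to 3 either way), one gene per row. The 99 genes above the line fell at night in vriΔ679 and rose at night in wild type, and the 17 genes below it did the reverse.

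The largest difference of any called gene was in the fat body gene Lsp2, and other fat body genes were among the largest falls. The fat body is the fly's storage tissue, part of which lines the head. Lsp2 (3L 12129393–12131869), which encodes a storage hexamerin, stood at 4.47 and 5.90 FPKM in vriΔ679 at ZT14 and 258 and 78.0 at ZT2, against 284 and 255 in wild type at ZT14 and 34.4 and 23.4 at ZT2. Its difference was −7.88 (SE 0.74, adjusted p = 0.00318), and −8.06 without the library labelled vriΔ679 ZT14 replicate 2, although the vriΔ679 ZT2 replicates lay far apart and its exons overlap a gene on the other strand. Fbp1, whose protein takes up hexamerins, and Fbp2 were also reversed, with −4.62 (SE 0.36, adjusted p = 0.00146) and −5.61 (SE 0.57, adjusted p = 0.00315). Both were low. In vriΔ679 at ZT14 they had 0.149 and 0.0803 FPKM (Fbp1) and 0.245 and 0.122 (Fbp2). Their highest values were 4.14 and 6.34 FPKM, in wild-type ZT14 replicate 2. Exons of Fbp2 overlap a gene on the same strand. fit, a fat body gene expressed mainly in females, stood at 12.3 and 10.3 FPKM in vriΔ679 at ZT14 and 202 and 155 at ZT2, against 52.8 and 63.4 in wild type at ZT14 and 64.3 and 30.7 at ZT2. It fell at night in vriΔ679, while the wild-type times overlapped, a difference of −4.29 (SE 0.47, adjusted p = 0.00387). Exons of fit overlap other genes on both strands.

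In all, 5 of the 12 tested fat body markers were called, each of them lower, beside 5.88% lower and 2.37% higher of all genes. The smallest was bmm, a triglyceride lipase gene (−0.65, adjusted p = 0.0468), lost without any 1 of the 6 libraries outside vriΔ679 at ZT14. The tested markers summed to 2759 and 1779 FPKM in vriΔ679 at ZT14 and 10764 and 6972 at ZT2, against 7585 and 3726 in wild type at ZT14 and 13453 and 8536 at ZT2. Of these sums, the 4 female-enriched markers, among them the yolk proteins, made up 2673 and 1693 FPKM in vriΔ679 at ZT14 and 10327 and 6757 at ZT2, against 7184 and 3355 in wild type at ZT14 and 13277 and 8387 at ZT2. The 3 male markers summed to 225 and 77.4 FPKM in vriΔ679 at ZT14 and 95.3 and 105 at ZT2, against 59.0 and 62.9 in wild type at ZT14 and 42.4 and 93.8 at ZT2, highest in vriΔ679 ZT14 replicate 1. That high sum came from roX1, at 196 and 42.6 FPKM in vriΔ679 ZT14 replicates 1 and 2. The markers roX2 (20.0 and 21.9) and msl-2 (8.38 and 12.9) were not raised in replicate 1. Fewer cells of a type and less RNA per cell cannot be told apart in heads, and the part of these markers in the results was not tested.

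Neuropeptide genes moved the other way. Of 29 tested, 13 were called higher and 3 lower, beside 2.37% and 5.88% of all genes, with a median difference of 0.61 and medians of 0.31 in vriΔ679 and −0.33 in wild type. Pdf (3R 26455462–26456141), the peptide through which clock neurons signal, stood at 122 and 106 FPKM in vriΔ679 at ZT14 and 63.5 and 56.9 at ZT2, against 52.9 and 56.2 in wild type at ZT14 and 79.7 and 82.7 at ZT2. It was highest in the mutant night and lowest in the wild-type night, and it was reversed with a difference of 1.49 (SE 0.17, adjusted p = 0.00498), and 1.60 without the library labelled vriΔ679 ZT14 replicate 2. Dsk, a sulfakinin gene, stood at 199 and 196 FPKM in vriΔ679 at ZT14 and 103 and 114 at ZT2, against 72.2 and 66.6 in wild type at ZT14 and 129.8 and 115 at ZT2, a difference of 1.68 (SE 0.17, adjusted p = 0.00315). Trissin, NPF, Capa and Ms were reversed in the same direction, with 1.85, 1.21, 1.38 and 1.08 (adjusted p of 0.00513, 0.00527, 0.00573 and 0.00932). These 4 genes, Ilp2 and Ilp3 were named after their values were seen. The call of Ms was lost without vriΔ679 ZT2 replicate 2, wild-type ZT14 replicate 2, wild-type ZT2 replicate 1 or wild-type ZT2 replicate 2 (adjusted p of 0.0522 to 0.0583).

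The insulin-like peptide genes did not move together. Ilp5 (3L 9823349–9823897) stood at 21.3 and 16.3 FPKM in vriΔ679 at ZT14 and 49.2 and 49.9 at ZT2, against 58.2 and 66.1 in wild type at ZT14 and 28.3 and 31.2 at ZT2. It was reversed with a difference of −2.43 (SE 0.21, adjusted p = 0.00209), opposite to the other 6 reversed peptide genes. Ilp3 was gained, at 27.3 and 23.6 FPKM in vriΔ679 at ZT14 and 61.3 and 61.1 at ZT2, against 37.4 and 49.9 in wild type at ZT14 and 28.2 and 24.4 at ZT2 (−1.96, SE 0.23, adjusted p = 0.00533). Ilp2 was lost, with a higher difference (0.90, SE 0.16, adjusted p = 0.0193), a call that ended without any 1 of the 6 libraries outside vriΔ679 at ZT14 (adjusted p of 0.0623 to 0.105). Members of the peptide list called higher and lower numbered 17 and 4 without either vriΔ679 ZT14 library, 8 and 2 or 6 and 3 without vriΔ679 ZT2 replicate 1 or 2, 8 and 2 or 5 and 2 without wild-type ZT14 replicate 1 or 2, and 7 and 2 or 5 and 2 without wild-type ZT2 replicate 1 or 2. No member of the neuron list was called by limma, and 2 of 13 had an unadjusted p under 0.05, beside 2732 of 10122 genes. Its median was −0.20. This was −0.02 without vriΔ679 ZT14 replicate 1 and −0.40 without the library labelled replicate 2. The peptide genes summed to 2014 and 2034 FPKM in vriΔ679 at ZT14 and 1592 and 1562 at ZT2, against 1255 and 1267 in wild type at ZT14 and 1589.6 and 1632 at ZT2. The neuron markers summed to 1463 and 1992 FPKM in vriΔ679 at ZT14, where replicate 1 was the lowest of all libraries, and 1936 and 2134 at ZT2, against 1987 and 2059 in wild type at ZT14 and 1975 and 1956 at ZT2. Their part in the peptide result was not tested.

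Among lost genes was Zasp67 (3L 9787933–9797687), a gene of the Z-disc protein family. It stood at 1.02 and 1.40 FPKM in vriΔ679 at ZT14 and 1.31 and 1.63 at ZT2, against 13.7 and 17.0 in wild type at ZT14 and 0.678 and 1.14 at ZT2. The wild-type night was the only group with a raised level, and the difference was −3.72 (SE 0.30, adjusted p = 0.00157). Oatp33Ea, an organic anion transporter gene, was also high in the wild-type night alone, at 3.11 and 3.73 FPKM in vriΔ679 at ZT14 and 4.33 and 4.93 at ZT2, against 18.7 and 20.9 in wild type at ZT14 and 3.68 and 3.72 at ZT2 (−2.66, SE 0.18, adjusted p = 0.000991). v(2)k05816 (current symbol FASN2), a fatty acid synthase gene, stood at 0.650 and 0.422 FPKM in vriΔ679 at ZT14 and 0.650 and 0.690 at ZT2, against 7.22 and 7.73 in wild type at ZT14 and 1.36 and 1.22 at ZT2 (−2.34, SE 0.21, adjusted p = 0.00236). All 3 calls, and those of CG15023 (−3.62) and CG8192 (−2.48), held with any 1 library left out.

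Of the 243 lost genes, 175 had a lower and 68 a higher difference. CG5773 stood at 198 and 131 FPKM in vriΔ679 at ZT14 and 95.4 and 86.0 at ZT2, against 70.0 and 37.6 in wild type at ZT14 and 366 and 289 at ZT2, a difference of 3.48 (SE 0.45, adjusted p = 0.00764). CG17325 and CG9757 had 2.76 and 3.62, and CG9757 had no call once wild-type ZT14 replicate 2 or wild-type ZT2 replicate 1 was left out (adjusted p of 0.0507 to 0.0576). Of the reversed genes with the largest rise, CG13931 and the noncoding CR44138 had 3.33 and 3.11. tobi, an insulin-responsive glucosidase gene, was lost with −5.32 (SE 0.74, adjusted p = 0.0113) and had no call without wild-type ZT14 replicate 2 or wild-type ZT2 replicate 2 (adjusted p of 0.0541 to 0.0581).

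Of the 323 gained genes, 226 had a lower and 97 a higher difference. CG14142 (3L 11173514–11176892) stood at 1.30 and 1.71 FPKM in vriΔ679 at ZT14 and 18.2 and 19.3 at ZT2, against 1.94 and 1.88 in wild type at ZT14 and 2.41 and 2.26 at ZT2 (−3.03, SE 0.19, adjusted p = 0.000828). The detoxification gene GstE4, a glutathione S-transferase, stood at 3.20 and 1.36 FPKM in vriΔ679 at ZT14 and 64.0 and 51.7 at ZT2, against 3.92 and 2.47 in wild type at ZT14 and 6.46 and 5.89 at ZT2 (−3.59, SE 0.47, adjusted p = 0.00832). In both, the mutant day stood apart from the other 3 groups. Obp28a, an odorant-binding protein gene, showed the same with 19.8 and 11.0 FPKM in vriΔ679 at ZT14 and 147 and 128 at ZT2, against 36.9 and 34.3 in wild type at ZT14 and 32.8 and 27.8 at ZT2 (−3.41, SE 0.36, adjusted p = 0.00341). In CG10185 (−3.36) and CG10096 (−2.98) the mutant day also stood apart, but CG10096 is listed at 0 in both vriΔ679 and both wild-type ZT14 libraries, and neither gene passed the filter without one of the vriΔ679 ZT2 libraries.

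In other gained genes the mutant night stood apart. obst-A, which encodes a chitin-binding protein, stood at 9.48 and 9.22 FPKM in vriΔ679 at ZT14 and 57.4 and 73.0 at ZT2, against 76.6 and 86.7 in wild type at ZT14 and 55.2 and 45.4 at ZT2 (−3.42, SE 0.23, adjusted p = 0.000945). Pepck, the gluconeogenic enzyme gene, stood at 82.2 and 70.5 FPKM in vriΔ679 at ZT14 and 159.8 and 148 at ZT2, against 365 and 395 in wild type at ZT14 and 295 and 308 at ZT2, lower in vriΔ679 at both times and most so at night (−1.34, SE 0.18, adjusted p = 0.00876). The noncoding CRG stood at 259 and 236 FPKM in vriΔ679 at ZT14 and 36.3 and 46.7 at ZT2, against 28.0 and 26.9 in wild type at ZT14 and 37.2 and 39.7 at ZT2 (3.05, SE 0.20, adjusted p = 0.000945), but its exons overlap another gene on the same strand. Sirt4, a sirtuin gene, was low in the mutant day only, at 21.3 and 14.8 FPKM in vriΔ679 at ZT14 and 1.01 and 2.83 at ZT2, against 25.3 and 21.8 in wild type at ZT14 and 22.3 and 20.6 at ZT2. Its difference was 2.89 (adjusted p = 0.0191), lost without vriΔ679 ZT14 replicate 1 or any wild-type library (adjusted p of 0.0571 to 0.0909).

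Photoreceptor genes had higher calls over all 8 libraries, none of which held with any 1 library left out. Of 25 phototransduction genes, 6 were called higher and 0 lower, beside 2.37% and 5.88% of all genes. At an unadjusted p under 0.05 in limma, 9 were higher and 0 lower, beside 2732 of 10122 genes in either direction. Rh6, a rhodopsin of the compound eye, stood at 1327 and 1150.5 FPKM in vriΔ679 at ZT14 and 495 and 453 at ZT2, against 609.7 and 562 in wild type at ZT14 and 605 and 642 at ZT2 (1.47, SE 0.20, adjusted p = 0.00909). The mutant night was high, and the other groups lay between 453 and 642 FPKM. Leaving out replicate 2 of wild type at either time ended the call (adjusted p of 0.0589 to 0.0596). The rhodopsin gene Rh4 and the arrestin gene Arr1, which shuts rhodopsin off, had 1.09 and 1.52 (adjusted p of 0.0234 and 0.013), lost without 6 and 5 of the libraries outside vriΔ679 at ZT14 (adjusted p of 0.068 to 0.128). The list summed to 54859.8 and 52735 FPKM in vriΔ679 at ZT14 and 39620.2 and 37443 at ZT2, against 35458 and 32024 in wild type at ZT14 and 42091 and 44763 at ZT2. The median difference of the list was 0.29. It was 0.38 without vriΔ679 ZT14 replicate 1 and 0.28 without the library labelled replicate 2. Without vriΔ679 ZT2 replicates 1 and 2 it was 0.21 and 0.35, and without replicates 1 and 2 of wild type at ZT14 0.25 and 0.41. Without wild-type ZT2 replicates 1 and 2 it was 0.27 and 0.33.

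The enlarged class held 6 genes, per and 5 genes that fell at night in both genotypes. Cdc6, which licenses replication origins, stood at 0.284 and 0.418 FPKM in vriΔ679 at ZT14 and 9.77 and 10.9 at ZT2, against 0.749 and 0.459 in wild type at ZT14 and 2.93 and 2.76 at ZT2 (−2.06, SE 0.24, adjusted p = 0.0051). CG11391 (current symbol Acsx2) had −3.27 (SE 0.47, adjusted p = 0.0101). Both differed through a higher day level in vriΔ679. The antennal genes a5 and Obp69a and the cuticle gene Cpr66D had −3.27, −2.33 and −1.03 (adjusted p of 0.014, 0.0236 and 0.0188), each lost without 3 to 5 of the libraries outside vriΔ679 at ZT14 (adjusted p of 0.0529 to 0.0664 for a5, 0.0525 to 0.0954 for Obp69a and 0.0682 to 0.0986 for Cpr66D). a5 is listed at 0 in both wild-type ZT14 libraries.

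The reduced class held 4 genes. CG14118 (3L 12892658–12894758) stood at 2.61 and 2.34 FPKM in vriΔ679 at ZT14 and 0.333 and 0.289 at ZT2, against 17.0 and 22.1 in wild type at ZT14 and 0.190 and 0.245 at ZT2 (−2.92, SE 0.22, adjusted p = 0.00146). rpr, which sets off programmed cell death, stood at 7.88 and 5.61 FPKM in vriΔ679 at ZT14 and 3.81 and 3.76 at ZT2, against 27.7 and 29.4 in wild type at ZT14 and 4.00 and 4.22 at ZT2 (−1.92, SE 0.23, adjusted p = 0.00513). Both rose at night in each genotype, less so in vriΔ679, and both calls held with any 1 library left out. CG14329 and CG6910 (current symbol Miox) fell less at night in vriΔ679, with 1.37 and 1.21 (adjusted p of 0.0286 and 0.0446). These calls were lost without 5 and 6 libraries, among them the 4 wild-type ones and vriΔ679 ZT2 replicate 2, and for CG6910 also vriΔ679 ZT14 replicate 1 (adjusted p of 0.0721 to 0.12 and 0.0598 to 0.162).

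The proteasome, muscle and basement membrane lists also had members called lower, with median differences of −1.04, −0.87 and −1.15. The proteasome degrades ubiquitin-tagged proteins, and 14 of its 32 subunit genes were called lower and 0 higher, beside 5.88% and 2.37% of all genes. All 14 belong to the regulatory particle that caps the core, and the list had medians of −0.42 in vriΔ679 and 0.56 in wild type. A negative difference was found in 31 of the 32 genes. The calls thus say which genes passed the threshold, not that the others did not move. Rpn6, a lid subunit gene, stood at 61.4 and 54.7 FPKM in vriΔ679 at ZT14 and 102 and 116 at ZT2, against 144 and 201 in wild type at ZT14 and 103 and 101 at ZT2, lowest in the mutant night and highest in the wild-type night. Its difference was −1.64 (SE 0.25, adjusted p = 0.0122), and those of Rpt3 and Rpn9 were −1.43 and −1.95 (adjusted p of 0.0165 and 0.0166). The count of 14 was 23 and 18 without vriΔ679 ZT14 replicates 1 and 2, 5 and 0 without vriΔ679 ZT2 replicates 1 and 2, 13 and 2 without replicates 1 and 2 of wild type at ZT14, and 0 without either wild-type ZT2 library. None of the 14 held with any 1 library left out, while 23 of the 32 had a negative difference at an unadjusted p under 0.05.

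Of 15 muscle genes, 6 were called lower and 0 higher, beside 5.88% and 2.37% of all genes. Act57B, a muscle actin gene, stood at 1546 and 1591 FPKM in vriΔ679 at ZT14 and 2037 and 2080.5 at ZT2, against 3536 and 3754 in wild type at ZT14 and 1951 and 1928 at ZT2. The wild-type night was high and the mutant night lowest (−1.30, SE 0.20, adjusted p = 0.013). Mhc, the muscle myosin heavy chain gene, and Mlc1, a myosin light chain gene, had −1.15 and −1.09 (adjusted p of 0.0291 and 0.0297). These 3 calls were lost without any 1 of the 6 libraries outside vriΔ679 at ZT14 (adjusted p of 0.0566 to 0.144). The list summed to 6713 and 6074 FPKM in vriΔ679 at ZT14 and 8047 and 7736 at ZT2, against 11585 and 12859 in wild type at ZT14 and 7413 and 7601 at ZT2, and its part in the other results was not tested. It had 8 and 10 members lower without vriΔ679 ZT14 replicates 1 and 2, with 1 higher without the one labelled replicate 2, and 1 lower without wild-type ZT14 replicate 1 and 0 without any other library.

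Of 9 basement membrane genes, which encode the sheet under epithelia, 5 were called lower and 0 higher, beside 5.88% and 2.37% of all genes. The laminin genes LanB2 and LanB1 and the perlecan gene trol had −1.40, −1.06 and −1.15 (adjusted p of 0.0196, 0.0243 and 0.0219), each lost without 5 libraries outside vriΔ679 at ZT14 (adjusted p of 0.0564 to 0.116). The members called lower numbered 4 and 7 without vriΔ679 ZT14 replicates 1 and 2, with 1 higher without the one labelled replicate 2. They numbered 1 and 0 without vriΔ679 ZT2 replicates 1 and 2, 0 without either wild-type ZT14 library, and 5 and 0 without wild-type ZT2 replicates 1 and 2. No glia marker was called by limma. A negative difference at an unadjusted p under 0.05 was found in 5 of 10, beside 2732 of 10122 genes at that p in either direction. Their sum was 949 and 974 FPKM in vriΔ679 at ZT14 and 1284 and 1096 at ZT2, against 1676 and 1651 in wild type at ZT14 and 1507 and 1339.8 at ZT2.

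**Figure D5:**
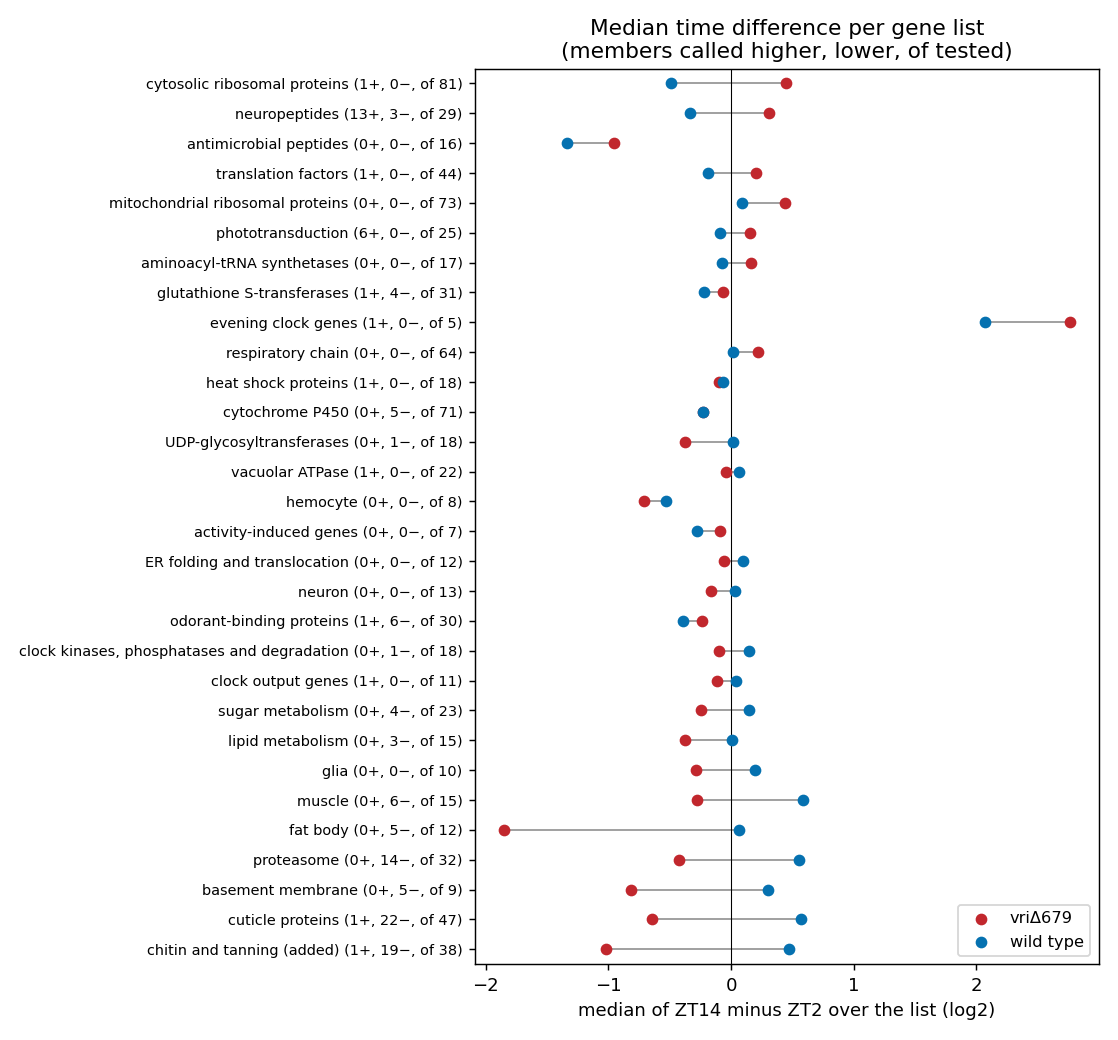
Median ZT14 minus ZT2 (log2) over the tested members of each gene list in vriΔ679 (red) and wild type (blue), with the numbers called higher (+) and lower (−) in genotype by time and the number tested. The cuticle list lies at −0.65 in vriΔ679 and 0.57 in wild type, and the cytosolic ribosomal proteins at 0.45 and −0.49.

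Genes for cytosolic ribosomal proteins had a positive difference in 81 of 81 members, with a median of 0.93, yet only RpS2 was called (1.25, SE 0.28, adjusted p = 0.0415). An unadjusted p under 0.05 was found in 56 members, beside 2732 of 10122 genes. Under quantile normalization the median was 0.49. Their summed level was 117708 and 74146 FPKM in vriΔ679 at ZT14, where the replicates stood far apart, and 76034 and 65282 at ZT2, against 64389 and 60740.1 in wild type at ZT14 and 89348 and 87462 at ZT2. Without vriΔ679 ZT14 replicates 1 and 2, the median difference of the list was 0.58 and 1.29. Of 44 translation factor genes 1 was called, CG9769 (current symbol eIF3f1), with 1.01 (adjusted p = 0.0352). The median difference of that list was 0.34, and 0.49 without the library labelled vriΔ679 ZT14 replicate 2. Of 18 heat shock protein genes 1 was called, Hsp22, with 1.67 (adjusted p = 0.0328), and of 22 vacuolar ATPase genes 1, VhaM9.7-a, with 0.93 (adjusted p = 0.0224). The calls of these 4 genes were lost without any 1 of the 6 libraries outside vriΔ679 at ZT14 (adjusted p of 0.0903 to 0.172 for RpS2, 0.0663 to 0.15 for CG9769, 0.0559 to 0.13 for Hsp22 and 0.0731 to 0.112 for VhaM9.7-a).

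Calls in the metabolic and detoxification lists were mostly lower, as were 595 of the 835 calls over all genes. Calls made up 5.88% (lower) and 2.37% (higher) of all genes tested. Of 23 sugar metabolism genes 4 were called lower, beside 5.88% of all genes, among them tobi, Pepck and the glycogen synthase gene GlyS (−1.13, adjusted p = 0.014). Of 15 lipid metabolism genes 3 were called lower, FASN2, bmm and the ATP citrate lyase gene ATPCL (−0.89, adjusted p = 0.0216). Of 71 cytochrome P450 genes 5 were called lower, a share near that of all genes, among them Cyp4e3 (−2.15), Cyp6a16 (−1.69) and Cyp6d4 (−1.39). The median difference of this list was 0.01, with 37 members higher. Of 31 glutathione S-transferase genes 4 were called lower and 1 higher, GstS1 (−1.80) and GstD8 (−1.39) beside GstE4. The median difference of this list was 0.25, with 21 members higher. Of 18 UDP-glycosyltransferase genes 1 was called lower, CG10178 (−1.0), again a share near that of all genes. Of 30 odorant-binding protein genes 6 were lower and 1 higher, with Obp56f (−2.13) beside Obp28a and Obp69a. Without the library labelled vriΔ679 ZT14 replicate 2 these last 4 lists had 10, 9, 2 and 11 members called higher and 7, 7, 3 and 9 lower, beside 19.9% and 21.7% of all genes in that setting. The calls of the 9 genes first named in this paragraph were each lost without 2 to 6 libraries, all outside vriΔ679 at ZT14 (adjusted p of 0.0502 to 0.12).

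No member of 10 further lists was called by limma. Over all genes, 2732 of 10122 had an unadjusted p under 0.05 in limma, in either direction. At an unadjusted p under 0.05, higher and lower members numbered 0 and 0 of 3 male markers, 2 and 1 of 8 hemocyte markers, 1 and 0 of 16 antimicrobial peptide genes and 1 and 0 of 4 Turandot stress genes. They numbered 2 and 0 of 7 activity-induced genes, 0 and 0 of 12 genes for folding and translocation in the endoplasmic reticulum, 11 and 0 of 73 mitochondrial ribosomal protein genes, 1 and 0 of 17 aminoacyl-tRNA synthetase genes, and 1 and 1 of 64 respiratory chain genes. The morning clock genes Clk and cry are the remaining list, with 2 and 0. The median differences of the mitochondrial ribosomal protein, respiratory chain and aminoacyl-tRNA synthetase lists were 0.34, 0.17 and 0.26. They were 0.62, 0.45 and 0.36 without the library labelled vriΔ679 ZT14 replicate 2, and 0.04, −0.11 and 0.16 without replicate 1. Of the 143 genes called in neither genotype, those with small p included CR43144 (−1.72), CG10348 (−1.07), CG1136 (−1.23), trol and VhaM9.7-a. None of the 143 held with any 1 library left out.

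Some of the largest values came from symbols that share a position in the tables. CG17327 and CG44194 list the same span (3R 12996876–12997726). CG17327 had 81.5 and 48.6 FPKM in vriΔ679 at ZT14 and 42.1 and 40.0 at ZT2, and in wild type it is listed at 0 in both ZT14 libraries and had 37.7 and 41.3 at ZT2. CG44194 had 0.0272 and 0.0320 FPKM in vriΔ679 at ZT14 and 0.00919 and 0.0165 at ZT2, against 29.7 and 31.7 in wild type at ZT14 and 0.0186 and 0.0729 at ZT2. The wild-type night thus carried its signal under one symbol and the other groups under the other. Their fitted differences of 6.93 and −5.79 became 0.97 (SE 0.32, adjusted p = 0.107) when the symbols were summed, an alternative chosen after seeing the data. In all, 19 called genes share a transcript span with another symbol, and 13 were called after merging, among them DnaJ-60, a chaperone cofactor gene, with 3.09 (adjusted p = 0.00157) alone and 1.53 (adjusted p = 0.00809) merged, and CG10096 and CG17325. Exons overlapped another gene in 32.6% of called genes and 41.0% of all genes tested.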

How the data were processed

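Poly(A) RNA from fly heads was sequenced with a strand-specific kit as single 75 nt reads, 4 libraries to a run, per the labels' protocols. Which libraries shared a run is not given in the sources used here. Per the submitters' processing notes, STAR 2.6.1d and StringTie were used with the dm6 build. The deposited tables give FPKM and per-base coverage for 35411 transcripts. FPKM, normalized by the authors, was summed per gene symbol (16727 symbols), and the deposited coverage divided by FPKM gave the mapped reads per library.

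Summed FPKM values were scaled between libraries by medians of ratios and log2(FPKM + 0.5) was taken, which understates the change of low genes. The 10122 genes with at least 1 FPKM in 2 or more libraries were fitted in limma 3.58.1 (R 4.3.3, statmod 1.5.0), with 1 mean for each of the 4 groups and trended, robust variance moderation. Benjamini-Hochberg adjustment covered every gene that entered the fit, and an adjusted p under 0.05 was a call. The script was tested on simulated data.

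The classes and gene lists were chosen with earlier results of these data known. The rule for named genes took fixed clock genes, the 10 largest rises and 10 largest falls among calls, the 6 smallest p-values in each class and the 3 smallest in each list, leaving out list members that were not called. A gene under this rule is not reported here. kkv, Gasp, verm, Cht7, Duox, laccase2, Ilp2, Ilp3, Trissin, NPF, Capa and Ms were added after their values were seen. Alternatives changed the pseudocount, filter, scaling, variance model, replicate block, class rule and libraries, 1 at a time. Promoter motifs were not searched, and no sequence was used here.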

Additional observations from a re-analysis of the deposited data

Results flagged for a closer look

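The 835 genes called in genotype by time, and each called gene named above, are listed here because the time difference differed between the genotypes by a test of that difference itself. Each value is the time difference in vriΔ679 minus that in wild type, on the log2 scale. A call that held is the call in genotype by time, not the class. Of the 116 reversed genes, 13 stayed reversed with a weight per group. With classes set by a time difference of at least 1 log2 unit, 63 did. By that rule Pdf and Dsk were in no class and Cpr62Bc was lost.

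Among reversed genes, the calls of Cpr62Bc (−3.48), Cpr76Bd (−3.51), Cpr92F (−3.47), Cpr47Ea (−4.24), kkv (−3.32), Gasp (−2.60), verm (−2.46), Cht7 (−2.73), Duox (−2.90), laccase2 (−2.74), Lsp2 (−7.88), Fbp1 (−4.62), Fbp2 (−5.61), Ilp5 (−2.43), CG4017 (−4.31), CG13063 (−4.26), CG11345 (−4.20), CG3777 (−3.21), CG15080 (−3.45), CG16885 (−3.78) and CG7896 (−2.85) were lower in vriΔ679 and held with any 1 library left out. Among reversed genes, the calls of Pdf (1.49), Dsk (1.68), Trissin (1.85), NPF (1.21), Capa (1.38), CG13931 (3.33) and CR44138 (3.11) were higher in vriΔ679 and held with any 1 library left out. The call of Ms (1.08) was higher and ended, or could not be tested, without at least 1 library. Among lost genes, the calls of Oatp33Ea (−2.66), Zasp67 (−3.72), v(2)k05816 (−2.34), CG15023 (−3.62) and CG8192 (−2.48) were lower in vriΔ679 and held with any 1 library left out. Among lost genes, the call of CG17327 (6.93) was higher in vriΔ679 with any 1 library left out, but the value became 0.97 (adjusted p = 0.107 in limma) when it was summed with CG44194, which lists the same span. The calls of CG5773 (3.48) and CG17325 (2.76) were higher in vriΔ679 and held with any 1 library left out. The calls of tobi (−5.32), Act57B (−1.30), Mlc1 (−1.09), CG44194 (−5.79), Cyp6d4 (−1.39), Cyp4e3 (−2.15), Cyp6a16 (−1.69), GstS1 (−1.80) and Obp56f (−2.13) were lower and ended, or could not be tested, without at least 1 library. The calls of Cpr49Ac (2.87), Ilp2 (0.90) and CG9757 (3.62) were higher and ended, or could not be tested, without at least 1 library.

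Among gained genes, the calls of fit (−4.29), Ilp3 (−1.96), obst-A (−3.42), CG14142 (−3.03), Obp28a (−3.41), GstE4 (−3.59) and Pepck (−1.34) were lower in vriΔ679 and held with any 1 library left out. Among gained genes, the calls of CRG (3.05) and DnaJ-60 (3.09) were higher in vriΔ679 and held with any 1 library left out. The calls of Atx2 (−1.44), GlyS (−1.13), LanB2 (−1.40), LanB1 (−1.06), Rpn6 (−1.64), Rpt3 (−1.43), Rpn9 (−1.95), CG10185 (−3.36), CG10096 (−2.98), ATPCL (−0.89), bmm (−0.65), GstD8 (−1.39) and CG10178 (−1.0) were lower and ended, or could not be tested, without at least 1 library. The calls of Rh6 (1.47), Arr1 (1.52), Rh4 (1.09), Sirt4 (2.89) and Hsp22 (1.67) were higher and ended, or could not be tested, without at least 1 library.

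Among enlarged genes, the calls of Cdc6 (−2.06) and CG11391 (−3.27) were lower in vriΔ679 and held with any 1 library left out. The calls of a5 (−3.27), Cpr66D (−1.03) and Obp69a (−2.33) were lower and ended, or could not be tested, without at least 1 library. The call of per (1.67) was higher and ended, or could not be tested, without at least 1 library. Among reduced genes, the calls of CG14118 (−2.92) and rpr (−1.92) were lower in vriΔ679 and held with any 1 library left out. The calls of CG14329 (1.37) and CG6910 (1.21) were higher and ended, or could not be tested, without at least 1 library. Among genes called in neither genotype, the calls of Mhc (−1.15), CR43144 (−1.72), CG10348 (−1.07), CG1136 (−1.23) and trol (−1.15) were lower and ended, or could not be tested, without at least 1 library. The calls of RpS2 (1.25), VhaM9.7-a (0.93) and CG9769 (1.01) were higher and ended, or could not be tested, without at least 1 library.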

How the results depend on the processing

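With each library left out in turn, calls ranged from 249 to 4187 in all, 48 to 2005 higher and 200 to 2182 lower. Lost genes ranged from 54 to 513, gained from 63 to 2844, reversed from 28 to 477, enlarged from 1 to 44, reduced from 1 to 26 and genes called in neither genotype from 30 to 346. Time calls ranged from 176 to 4602 in vriΔ679 and from 146 to 1455 in wild type. With a weight per group, 537 genes were called, 149 higher and 388 lower, with 395 lost, 24 gained, 22 reversed, 12 enlarged, 1 reduced and 83 in neither, and time calls numbered 87 in vriΔ679 and 2123 in wild type. Quantile normalization gave 466 higher and 580 lower calls and 7 reduced genes, and no filter on low values gave 2 reduced genes. With classes set by a time difference of at least 1 log2 unit in place of a test, 159 genes were lost, 173 gained, 76 reversed and 415 in neither.

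The replicate numbers did not pair the samples (correlations of replicate differences from −0.1429 to 0.2701), and the replicate block left 860 calls, 748 of them shared, with 8 reduced and 14 enlarged genes. Pseudocounts of 0.1 and 1 FPKM gave 810 and 837 calls, a filter of 5 FPKM 640, no filter 725, no rescaling 917, plain variance moderation 839 and merged symbols 872. The sign changed for vri under quantile normalization (0.045) and with libraries left out (−0.53 to 0.34), and with libraries left out for Pdp1 (−0.10 to 0.52) and cwo (−0.17 to 0.47). The cause was not tested. Leaving a library out leaves its group with 1 sample, assumed to vary like the other groups. A transcript of 3 kb with 3 reads would be listed near 0.02 FPKM, so depth bears mainly on genes near the filter.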
